A study of Homo sapiens with 18 samples.

Results

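Amino acid supply and tRNA charging in MDA-MB-231 cells are described here through 48 genes: the transcription factor ATF4 with other stress regulators, the amino acid synthesis genes and transporters usually counted among ATF4 targets, and the cytosolic aminoacyl-tRNA synthetases. The members were taken by symbol from a list of genes with these functions, and they are 48 of the 57448 genes in the deposited table. MDA-MB-231 is a human triple negative breast cancer line. WT is the parental line, KO1 and KO2 are cell pools that received CRISPR guides against GPS2, a repressor subunit of nuclear corepressor complexes, with a different guide set in each, and myrAKT carries a retrovirus for AKT1 tethered to the membrane by a myristoyl tag. KO1+MK and KO2+MK are the same pools after MK2206, an AKT inhibitor, at 10 µM for 4 h, and no vehicle is stated for the untreated libraries. Total RNA depleted of ribosomal RNA was sequenced from 3 libraries in each of the 6 groups, 18 in all. Each KO pool is a mixture of cells, since no clones were picked. The guides were delivered by lentivirus, and transduced cells were selected in puromycin. No control virus or selection is stated for WT. In comparisons of KO or myrAKT with WT, the intended change and the viral transduction or selection thus cannot be told apart. The labels do not say whether the 3 libraries of a group came from separate cultures.

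ATF4 is the effector of the integrated stress response. Its messenger RNA is translated more when eIF2 is phosphorylated, as in amino acid shortage or protein misfolding, and also when mTORC1 is active downstream of AKT. The protein, paired with C/EBP partners, binds composite elements near genes for amino acid synthesis, uptake and tRNA charging, so RNA of these genes is often read for its activity, while ATF4 RNA alone does not measure its protein.

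The core letters of the composite C/EBP and ATF element, TGATGNAA, were searched on both strands of RefSeq promoter windows on build GRCh38.p14, which run from 250 bases before to 50 bases after a transcript start. Windows were found for 39 of the 48 members, with none for SHMT2, VARS1, SLC7A11, YARS1, ALDH1L2, PYCR1, LARS1, PSPH and EIF4EBP1. The letters were in 14 of the 39 (35.9%), in 1217 of all 27305 genes with a window (4.46%), in 304 of the 11024 tested genes with a window (2.76%) and in 1270 of all 35116 windows (3.62%). By role they were in 7 of 10 synthetases often listed as ATF4 targets, 4 of 7 transporters, 2 of 8 regulators, 1 of 6 enzymes and 0 of 6 other cytosolic synthetases. The 10 members whose letters begin before the transcript start are shown, so that the letters can be read beside the calls given by promoter below. Each run is 63 bases, 5′ to 3′ on the gene's strand, and capitals mark the 8 motif letters, which read TGATGNAA or, where the other strand holds them, TTNCATCA. A match describes these letters and is not a measured binding site.
CHAC1: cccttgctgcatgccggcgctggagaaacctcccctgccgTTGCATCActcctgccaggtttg
CEBPG: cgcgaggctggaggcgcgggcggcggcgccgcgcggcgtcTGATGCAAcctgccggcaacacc
ASNS: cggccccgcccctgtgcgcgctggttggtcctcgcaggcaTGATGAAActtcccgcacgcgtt
SLC1A5: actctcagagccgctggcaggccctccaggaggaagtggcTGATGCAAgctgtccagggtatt
SLC1A4: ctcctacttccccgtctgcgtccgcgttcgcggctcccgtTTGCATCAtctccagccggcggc
AARS1: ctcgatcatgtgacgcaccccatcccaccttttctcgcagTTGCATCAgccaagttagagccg
CARS1: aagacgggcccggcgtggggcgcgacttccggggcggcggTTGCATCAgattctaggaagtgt
GARS1: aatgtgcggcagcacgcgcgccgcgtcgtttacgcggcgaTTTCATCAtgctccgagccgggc
IARS1: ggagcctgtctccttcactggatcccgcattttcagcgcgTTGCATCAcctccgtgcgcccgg
MARS1: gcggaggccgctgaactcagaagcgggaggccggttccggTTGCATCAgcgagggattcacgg
The runs are CHAC1 at chr15:40953222-40953284 (+ strand), CEBPG at chr19:33374031-33374093 (+ strand), ASNS at chr7:97872454-97872516 (- strand), SLC1A5 at chr19:46784889-46784951 (- strand), SLC1A4 at chr2:64989352-64989414 (+ strand), AARS1 at chr16:70289671-70289733 (- strand), CARS1 at chr11:3057403-3057465 (- strand), GARS1 at chr7:30594805-30594867 (+ strand), IARS1 at chr9:92293688-92293750 (- strand) and MARS1 at chr12:57488024-57488086 (+ strand). The letters began 2 bases before the start in CARS1, 4 in MARS1, 7 in SLC1A4, 13 in IARS1, 33 in GARS1, 42 in CEBPG, 68 in ASNS, 97 in SLC1A5, 187 in AARS1 and 209 in CHAC1. In SLC3A2, SLC7A1, NARS1 and TARS1 the letters began after the start.

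**Figure D1:**
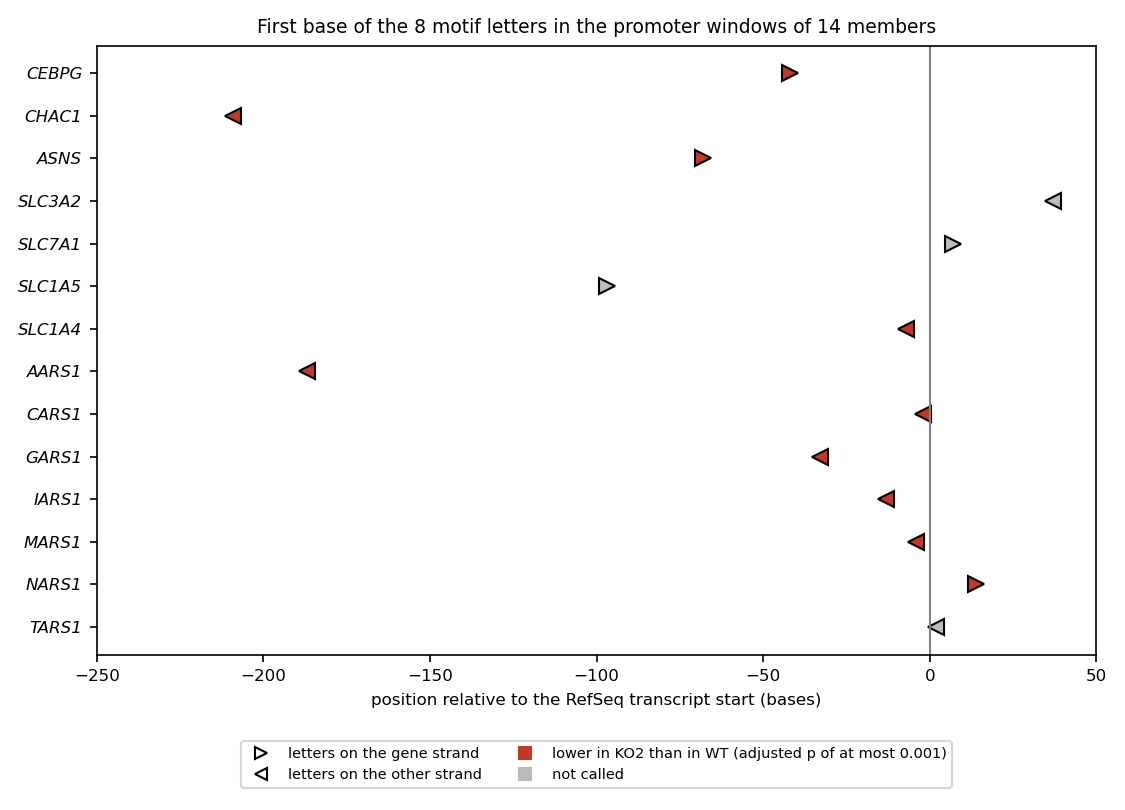
Position of the first of the 8 motif letters relative to the RefSeq transcript start (x axis, bases) for the 14 members that hold them, with the pointing direction giving the strand and red marking members lower in KO2 than in WT. Of the 14 members, 10 are red, and 10 have the letters before the start.

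Sequencing depth, as counts assigned to genes, ran from 23419198 to 39319910 per library. Medians were 36588503 in WT, 38031000 in KO1, 37434183 in KO2, 32742029 in myrAKT, 27113081 in KO1+MK and 29885567 in KO2+MK. The MK2206 libraries were thus shallower than the untreated KO libraries, and the part of depth in their differences was not tested. All 48 members passed the low-count filter, a level of at least 1 in 3 or more libraries on the CPM scale (counts scaled to library size), and the lowest count of a member in any library was 16. Levels are given as CPM, with library sizes scaled by TMM, and differences as log2 fold changes, the values printed without a unit. A gene was called when its Benjamini-Hochberg adjusted p, from edgeR's quasi-likelihood test over all 15587 genes tested, was at most 0.001. With 3 libraries against 3 the smallest exact permutation p is 0.1, so adjusted p-values measure spread between these libraries, which may be technical. In these bulk libraries a change in which cells of a pool are present and a change of RNA per cell cannot be told apart.

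Labels were compared with RNA before the members. Vimentin (VIM), at a mean of 1366 CPM, and CD44, at 582, were high in WT, while PGR, CDH1, PTPRC, CD3E and ALB had no more than 5 counts in any library. ESR1 stood at 0.965 CPM and DES at 0.634, and ERBB2, at 91.6, and EPCAM, at 12.01, were detected. The endothelial gene PECAM1 had means of 3.58 CPM in WT and 21.1 in myrAKT, log2 fold change 2.56 (edgeR adjusted p 9.42e-12). It was lower in KO1, at a mean of 1.72 CPM, than in WT, −1.06 (edgeR adjusted p 6.28e-06), and than in KO2, at 3.98 CPM, −1.21 (edgeR adjusted p 1.06e-06). The epithelial gene EPCAM was lower in myrAKT, at 3.22 CPM, −1.90 (edgeR adjusted p 5.19e-10), and in the pooled KO libraries, −0.39 (edgeR adjusted p 0.000675). With MK2206 it was called lower in KO2, −0.45 (edgeR adjusted p 0.000787), and not in the pooled libraries, −0.39 (edgeR adjusted p 0.00135). In myrAKT CD44 was lower, −0.49 (edgeR adjusted p 7.22e-07), and VIM higher, 0.36 (edgeR adjusted p 3.86e-05). VIM was also higher in KO, 0.23 (edgeR adjusted p 0.000592). Leaving out any WT library ended the KO calls of EPCAM (−0.40 to −0.37) and VIM (0.19 to 0.25), as did, for EPCAM, KO1 replicate 3 or any KO2 replicate and, for VIM, KO1 replicate 2 or KO2 replicate 1 or 3, and a replicate block ended both. The VIM call in KO ended also by DESeq2 size factors, upper-quartile factors, library totals and TMM on the compared libraries. The EPCAM call with MK2206 in KO2 ended without any KO2 replicate or KO2+MK replicate 1 or 2, by DESeq2 and under other scalings (−0.47 to −0.40). The part of these differences in other results of KO1, KO2, myrAKT and MK2206 was not tested. AKT1 was higher in myrAKT than in WT, a log2 fold change of 0.77 (SE 0.0468, edgeR adjusted p 4.64e-09). GPS2 was not called lower in the libraries labelled KO, with means of 4.57 CPM in WT, 4.50 in KO1 and 6.04 in KO2, and gene counts do not show whether a locus was edited. Of its exon bases 52.5% overlap EIF5A on the opposite strand, which had 471598 counts over all libraries against 3160 for GPS2. The study examined the pools by western blot and genomic PCR, which these counts do not include.

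Levels per transcript length set the scale of the program in WT. In TPM, which scales counts by exon length and library size (mean ± SD, n = 3), the most abundant members were TARS1 at 356 ± 9.79, which charges threonine tRNA, ATF4 at 341 ± 11.6 and the glutamine transporter SLC38A2 at 324 ± 11.3. Asparagine synthetase, ASNS, stood at 91.4 ± 7.52, and the heavy chain shared by several transporters, SLC3A2, at 88.8 ± 2.78. At the low end were ATF5 at 7.70 ± 1.17, the secreted hormone STC2 at 1.71 ± 0.349 and the mitochondrial folate enzyme ALDH1L2 at 0.633 ± 0.0878. Messenger RNA of the 13 synthetases often listed as ATF4 targets summed to 1656 ± 54.03 TPM and that of the 6 other cytosolic synthetases to 609.5 ± 10.9.

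The program in GPS2-targeted cells was read by comparing the 6 KO libraries, both pools together, with the 3 libraries of parental WT cells. Members lower in KO were 14 of 48 (29.2%, against 15.5% of all genes tested), and members higher were 9 (18.8%, against 16.9%). The median log2 fold change of the members was −0.22, and that of all genes 0.02. Both directions occurred within the program. Of the 13 synthetases often listed as ATF4 targets, 5 were lower and 0 higher, while of the 6 other cytosolic synthetases 5 were higher and 0 lower. DESeq2 called 0 higher and 8 lower of the 13 and 5 higher and 0 lower of the 6, and by edgeR 9 of the 13 and 5 of the 6 had an unadjusted p under 0.05. Of all genes DESeq2 called 20.7% higher and 20.8% lower, and 64.4% had such an unadjusted p. Of the 5 lower synthetases CARS1, LARS1, WARS1 and YARS1 lost their calls without any 1 WT library, and the difference between lists was not tested. With KO1 and KO2 as separate groups, 11 members were higher and 26 lower, against 25.3% and 24.8% of all genes in that fit.

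Among the 8 regulators, 3 were lower and 1 was higher. ATF4 (ENSG00000128272, chr22:39519695-39522683) had 271, 261 and 253 CPM in WT, 247, 253 and 235 in KO1 and 193, 185 and 205 in KO2. All 6 KO libraries lay below the 3 WT libraries, KO2 farther than KO1, but the pooled difference was not called, a log2 fold change of −0.25 (SE 0.0928, edgeR adjusted p 0.0345). CHAC1 (ENSG00000128965, chr15:40952962-40956512), which degrades glutathione, had 30.4, 26.5 and 25.5 CPM in WT, 14.8, 16.3 and 13.7 in KO1 and 12.3, 12.1 and 14.7 in KO2. Its KO values were all below WT, at a log2 fold change of −0.97 (SE 0.0922, edgeR adjusted p 4.46e-06). ATF5, a relative of ATF4 also regulated at translation, moved the other way. It had 5.58, 7.80 and 6.27 CPM in WT, 20.8, 15.6 and 20.8 in KO1 and 24.3, 24.3 and 23.2 in KO2, all KO libraries above all WT libraries, a log2 fold change of 1.71 (SE 0.153, edgeR adjusted p 2.85e-06). Of its exon bases 19.5% overlap NUP62 on the opposite strand, and how reads there were counted is not stated.

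CEBPB and CEBPG, C/EBP factors that pair with ATF4, were called lower. CEBPB had 108, 109.8 and 117 CPM in WT, 82.3, 81.1 and 73.5 in KO1 and 58.6, 59.3 and 67.1 in KO2, without overlap, a log2 fold change of −0.66 (SE 0.103, edgeR adjusted p 0.000179). CEBPG, printed above with the letters on its own strand, differed by a log2 fold change of −0.40 (SE 0.0566, edgeR adjusted p 8.85e-05). The stress-induced factor DDIT3, also called CHOP, had 14.5, 14.9 and 13.9 CPM in WT, 14.1, 14.9 and 14.6 in KO1 and 10.1, 10.2 and 10.6 in KO2. KO1 overlapped WT and KO2 was below it, and the pooled value was not called, a log2 fold change of −0.22 (SE 0.135, edgeR adjusted p 0.185); 31.6% of its exon bases overlap MARS1 on the opposite strand. The pseudokinase TRIB3, which binds ATF4 and AKT, had 66.3, 66.5 and 66.6 CPM in WT, 57.2, 62.9 and 57.8 in KO1 and 42.6, 40.4 and 43.7 in KO2. All KO libraries were below WT, and a log2 fold change of −0.39 (SE 0.129, edgeR adjusted p 0.0218) was not called. SESN2, a leucine sensor upstream of mTORC1, had 12.97, 12.97 and 13.2 CPM in WT, 13.02, 14.1 and 10.99 in KO1 and 7.82, 8.30 and 9.57 in KO2. Again KO1 overlapped WT and KO2 lay below, a log2 fold change of −0.29 (SE 0.166, edgeR adjusted p 0.146).

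**Figure D2:**
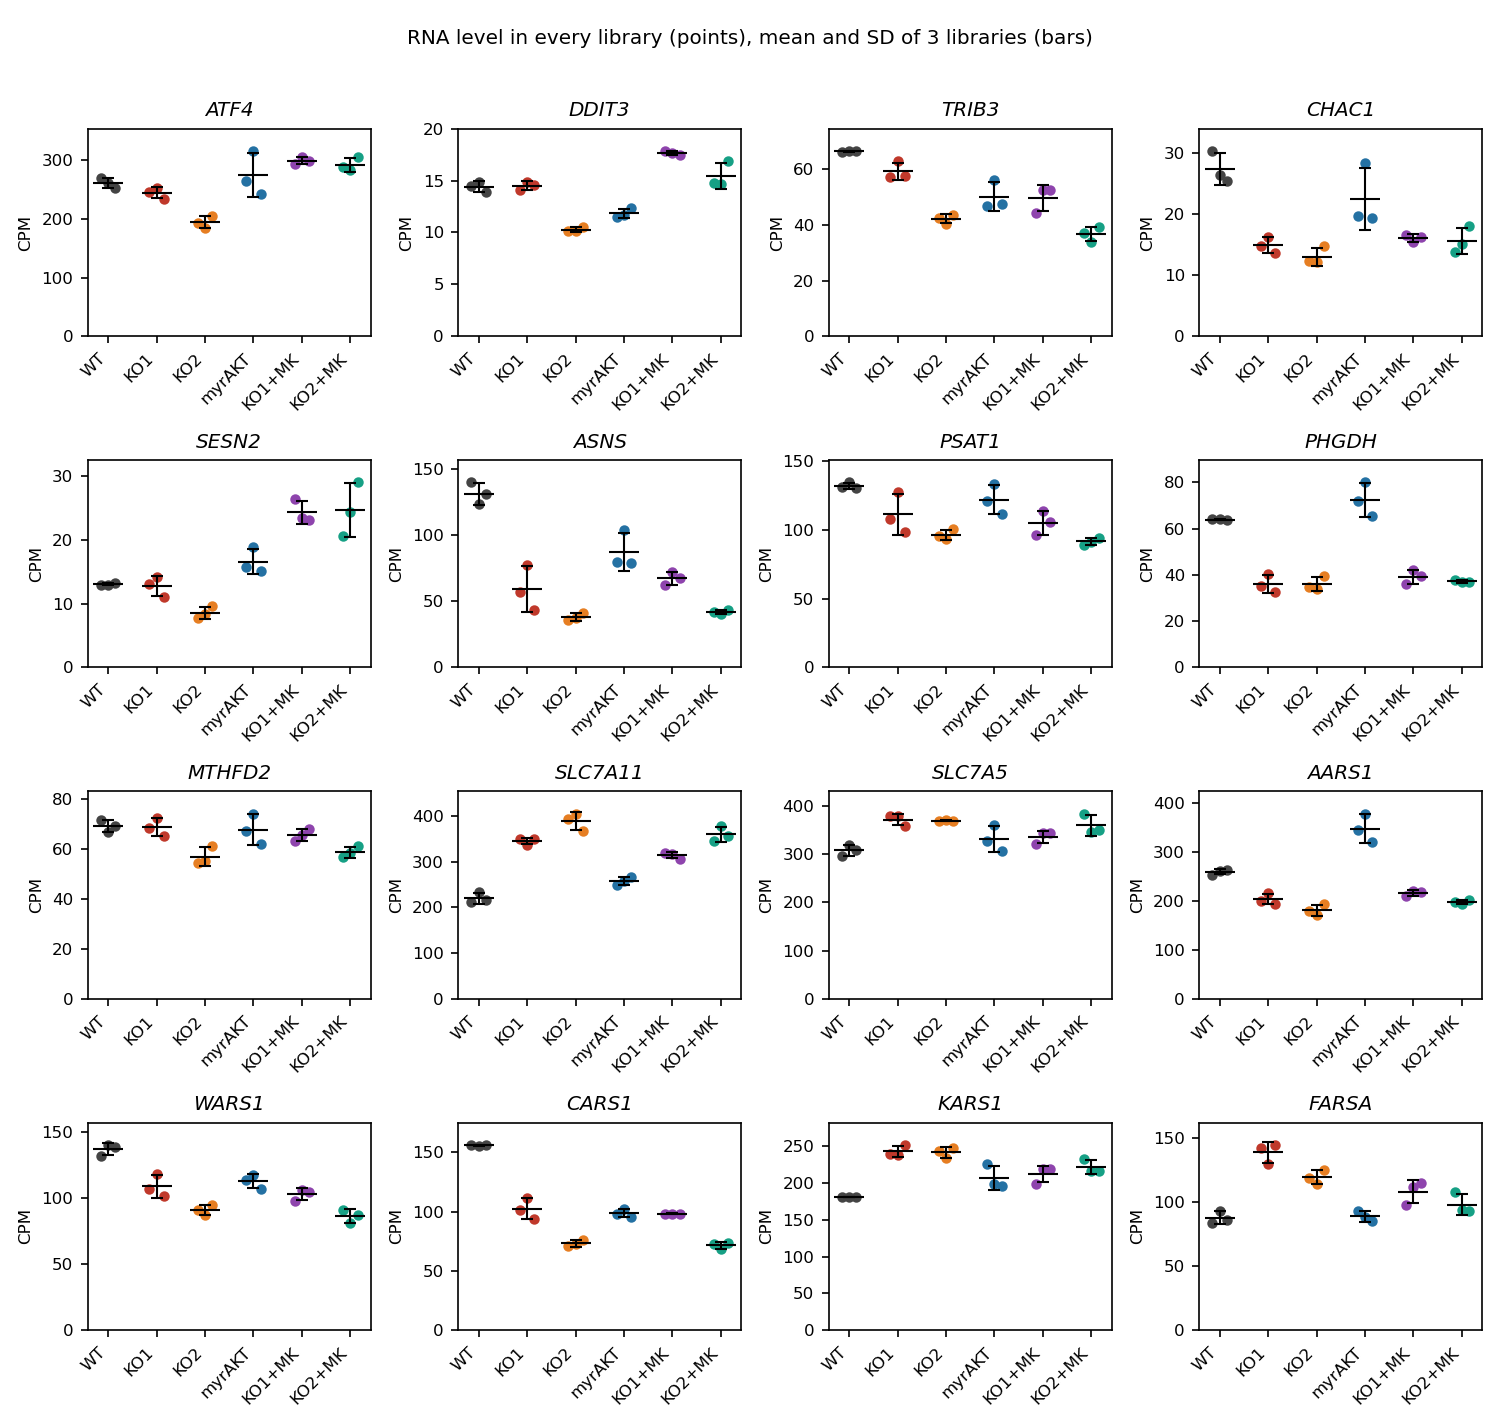
CPM (y axis, from 0) of 16 members in each library (points) with the mean and SD of the 3 libraries of each group (bars). ASNS, CARS1 and PHGDH sit below WT in all 6 KO libraries, SLC7A11, KARS1 and FARSA sit above, and ATF4, DDIT3 and SESN2 have their lowest untreated level in KO2.

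Among the 10 enzymes of amino acid synthesis and one-carbon metabolism, 3 were lower and 0 higher by edgeR, with 7 at an unadjusted p under 0.05 in either direction, and DESeq2 called 0 higher and 4 lower. ASNS (ENSG00000070669, chr7:97851677-97872542), which makes asparagine, had the lowest log2 fold change of all members. Its level was 139.9, 123 and 131 CPM in WT, 57.1, 77.7 and 43.6 in KO1 and 35.8, 37.5 and 41.5 in KO2. Every KO library was below every WT library, KO2 below KO1, at a log2 fold change of −1.42 (SE 0.200, edgeR adjusted p 8.46e-05). PHGDH (ENSG00000092621, chr1:119648411-119744218), the first enzyme of serine synthesis, had 64.2, 64.04 and 63.7 CPM in WT, 35.2, 40.6 and 32.7 in KO1 and 34.9, 34.04 and 39.4 in KO2. The KO pools overlapped each other and both were below WT, a log2 fold change of −0.82 (SE 0.0634, edgeR adjusted p 1.03e-06). The mitochondrial enzyme PCK2, which makes phosphoenolpyruvate, had 62.3, 62.6 and 63.4 CPM in WT, 40.05, 45.5 and 31.2 in KO1 and 30.2, 29.97 and 34.5 in KO2, all KO values lower, a log2 fold change of −0.83 (SE 0.117, edgeR adjusted p 8.59e-05).

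PSAT1 and MTHFD2 differed less. PSAT1, the second serine enzyme, had 131, 135 and 130.4 CPM in WT, 108, 128 and 98.6 in KO1 and 95.3, 93.6 and 100.4 in KO2. All KO libraries were below WT without a pooled call, a log2 fold change of −0.35 (SE 0.0834, edgeR adjusted p 0.00374). MTHFD2, which oxidises folate units in mitochondria, had 71.7, 66.98 and 69.2 CPM in WT, 68.4, 72.5 and 65.3 in KO1 and 54.2, 55.1 and 61.3 in KO2. KO1 overlapped WT and KO2 was below it, a log2 fold change of −0.14 (SE 0.0853, edgeR adjusted p 0.172). The remaining enzymes were not called, with log2 fold changes of −0.86 for ALDH1L2, −0.30 for the proline enzyme PYCR1, −0.14 for the mitochondrial serine enzyme SHMT2, −0.08 for PSPH, the last serine enzyme, and 0.10 for ALDH18A1, which starts proline synthesis.

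Transporters were divided, with 3 higher and 2 lower of 8 by edgeR and 5 higher and 2 lower by DESeq2, and 7 at an unadjusted p under 0.05. SLC7A11 (ENSG00000151012, chr4:138164097-138242349), which imports cystine in exchange for glutamate, had 212, 234 and 216 CPM in WT, 349, 337 and 349 in KO1 and 394, 406 and 367 in KO2. All KO libraries were above WT, a log2 fold change of 0.73 (SE 0.0632, edgeR adjusted p 2.21e-06). SLC7A5, the leucine carrier, had 296, 319 and 309 CPM in WT, 378, 378 and 358 in KO1 and 369, 371 and 368 in KO2, a small shift without overlap, a log2 fold change of 0.27 (SE 0.0341, edgeR adjusted p 4.32e-05). SLC38A2, which brings in glutamine with sodium, was higher by a log2 fold change of 0.38 (SE 0.0701, edgeR adjusted p 0.000578). Lower was SLC6A9, the glycine carrier, at 11.2, 13.7 and 12.1 CPM in WT, 7.36, 7.47 and 5.48 in KO1 and 5.70, 5.47 and 6.27 in KO2, a log2 fold change of −0.97 (SE 0.115, edgeR adjusted p 2.30e-05). SLC1A4, a serine and alanine carrier whose promoter letters are printed above, had 37.3, 39.5 and 40.5 CPM in WT, 23.3, 27.6 and 21.2 in KO1 and 24.04, 24.3 and 24.9 in KO2, a log2 fold change of −0.69 (SE 0.0678, edgeR adjusted p 5.74e-06). In both carriers each KO library was below each WT library. Uncalled were SLC3A2 at 0.27, the arginine carrier SLC7A1 at 0.16 and the glutamine carrier SLC1A5 at 0.04.

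Of the 3 other targets, 1 was lower. The lipoprotein receptor VLDLR had 44.6, 51.6 and 49.6 CPM in WT, 20.8, 23.7 and 20.2 in KO1 and 22.5, 23.004 and 24.02 in KO2, all KO values lower, a log2 fold change of −1.12 (SE 0.0632, edgeR adjusted p 1.86e-07). The translation repressor EIF4EBP1 was at −0.23 and STC2 at −0.07, both uncalled.

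The 13 synthetases often listed as ATF4 targets had a median log2 fold change of −0.43, and the 6 other cytosolic synthetases 0.38. CARS1 (ENSG00000110619, chr11:3000922-3057613), which charges cysteine tRNA, had 156, 156 and 156 CPM in WT, 102, 111 and 93.7 in KO1 and 70.6, 72.7 and 76.1 in KO2. The 3 groups did not overlap, and the pooled libraries gave a log2 fold change of −0.83 (SE 0.129, edgeR adjusted p 0.000178). AARS1, for alanine, had 253, 261 and 263 CPM in WT, 201, 215 and 194 in KO1 and 179, 171 and 193 in KO2, a log2 fold change of −0.43 (SE 0.0604, edgeR adjusted p 8.32e-05). WARS1, for tryptophan, had 132, 140.3 and 139 CPM in WT, 107, 118 and 101 in KO1 and 90.8, 87.2 and 95.03 in KO2, a log2 fold change of −0.45 (SE 0.0808, edgeR adjusted p 0.000487). In these too every KO library was below WT. LARS1, for leucine, ranged over 319.7 to 349.7 CPM in WT, 249 to 278 in KO1 and 204 to 215 in KO2, a log2 fold change of −0.52 (SE 0.0901, edgeR adjusted p 0.000427), and YARS1, for tyrosine, over 179.6 to 186, 133 to 161 and 116 to 125, a log2 fold change of −0.46 (SE 0.0871, edgeR adjusted p 0.0008). The other 8 were not called and ran from −0.46 in MARS1, through −0.43 in GARS1, −0.38 in SARS1, −0.19 in EPRS1, −0.10 in IARS1, −0.08 in NARS1 and 0.02 in TARS1, to 0.08 in VARS1.

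Other cytosolic synthetases were above WT. FARSA (ENSG00000179115, chr19:12922479-12934037), the catalytic subunit for phenylalanine, had 83.5, 93.3 and 86.4 CPM in WT, 142, 129.7 and 145 in KO1 and 119, 114 and 125 in KO2, a log2 fold change of 0.56 (SE 0.0758, edgeR adjusted p 6.71e-05). KARS1, for lysine, had 181, 181 and 181 CPM in WT, 239.9, 238 and 252 in KO1 and 244, 234 and 248 in KO2, a log2 fold change of 0.42 (SE 0.0328, edgeR adjusted p 1.10e-06). HARS1, for histidine, had 92.4, 98.2 and 95.8 CPM in WT, 131, 125 and 135 in KO1 and 119, 117 and 121 in KO2, a log2 fold change of 0.38 (SE 0.0492, edgeR adjusted p 4.33e-05). No KO library of these overlapped WT. RARS1, for arginine, was at 0.37 and FARSB, the partner of FARSA, at 0.32, both called, while QARS1, for glutamine, was uncalled at −0.01. In TPM summed over each list, the 13 went from 1656 ± 54.03 in WT to 1499 ± 79.7 in KO1 and 1293 ± 53.8 in KO2, and the 6 from 609.5 ± 10.9 to 763 ± 33.96 and 757 ± 27.6 (mean ± SD, n = 3). The plot of these sums by library shows lower KO sums for the 13 and higher KO sums for the 6.

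**Figure D3:**
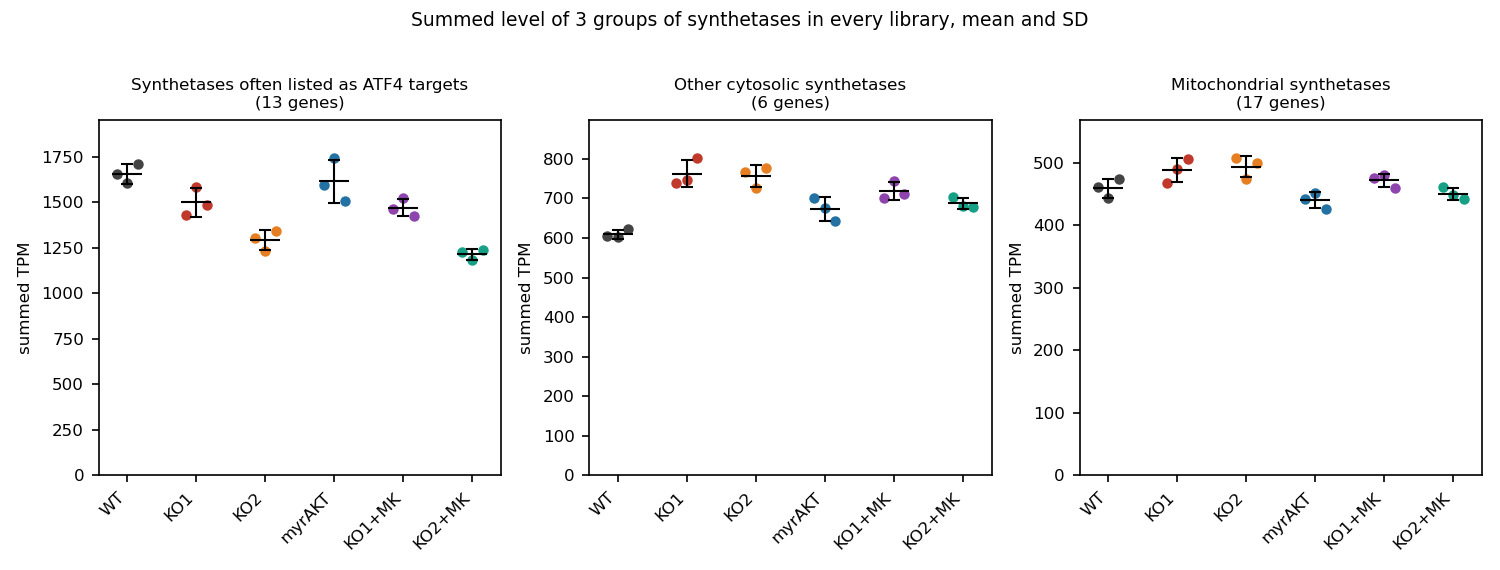
Summed TPM (y axis, from 0) of 3 groups of synthetases in each library (points), with mean and SD of 3 libraries (bars). The groups are the 13 synthetases often listed as ATF4 targets, the 6 other cytosolic synthetases and 17 mitochondrial synthetases, which are not members. From WT to KO2 the mean went from 1656 to 1293 in the 13, from 609.5 to 757 in the 6 and from 459 to 493 in the 17.

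Leaving out any 1 of the 3 WT libraries brought the members called lower from 14 to 9 and those called higher from 9 to 7, with 6 libraries against 2 in each such fit. The calls of CARS1, CEBPB, LARS1, WARS1, YARS1, SLC38A2 and FARSB ended without WT replicate 1, 2 or 3. The call of LARS1 ended also without KO2 replicate 3, that of WARS1 without KO1 replicate 3 or KO2 replicate 1 or 3, that of YARS1 without KO1 replicate 3 or any KO2 replicate, that of SLC38A2 without KO1 replicate 1 or 2 or KO2 replicate 1, and that of FARSB without KO1 replicate 1 or 3. Over the settings that ended a call, log2 fold changes were −0.83 for CARS1, −0.69 to −0.63 for CEBPB, −0.55 to −0.48 for LARS1, −0.48 to −0.43 for WARS1, −0.47 to −0.42 for YARS1, 0.37 to 0.40 for SLC38A2 and 0.30 to 0.34 for FARSB. A replicate block ended the same 7 calls, and TMM on the compared libraries that of FARSB. All 7 were called in each KO line alone against WT.

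Each KO line was also set beside the same 3 WT libraries, to see what the guide sets share. In KO1, 17 members were lower (35.4%, against 20.0% of all genes) and 14 higher (29.2%, against 21.9%), with a member median of −0.08 against 0.01 for all genes. In KO2, 29 were lower (60.4%, against 22.1%) and 9 higher (18.8%, against 21.7%), with −0.39 against 0.02. Lower in both were 17 members: SLC6A9, WARS1, SARS1, GARS1, VLDLR, CARS1, ASNS, PCK2, LARS1, MARS1, PHGDH, YARS1, CHAC1, CEBPB, AARS1, CEBPG and SLC1A4. Higher in both were 9: ATF5, SLC38A2, FARSA, HARS1, KARS1, FARSB, SLC7A11, SLC7A5 and RARS1. Called lower in KO2 and uncalled in KO1 were 12, namely NARS1, SHMT2, EIF4EBP1, IARS1, PSAT1, PYCR1, EPRS1, SESN2, DDIT3, MTHFD2, ATF4 and TRIB3. Called higher in KO1 and uncalled in KO2 were SLC3A2, VARS1, SLC7A1, SLC1A5 and ALDH18A1, and STC2, QARS1, ALDH1L2, TARS1 and PSPH were called in neither.

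The lines were then compared directly, with no WT library involved. KO1 was above KO2 in 26 of 48 members (54.2%, against 7.62% of all genes) and below it in 0 by edgeR (against 5.08%), while DESeq2 called 2 below, and 38 had an unadjusted p under 0.05 in either direction. Over all genes DESeq2 called 6.43% below, and 43.2% had an unadjusted p under 0.05. The member median was 0.22 and that of all genes 0.01. Among the 13 synthetases often listed as ATF4 targets 12 were called lower in KO2 than in KO1, and AARS1, at 0.17 (edgeR adjusted p 0.00576), was uncalled. For ASNS the log2 fold change was 0.64 (SE 0.125, edgeR adjusted p 0.000627), for SESN2 0.57 (SE 0.0921, edgeR adjusted p 8.83e-05), for DDIT3 0.50 (SE 0.0632, edgeR adjusted p 6.23e-06), for TRIB3 0.49 (SE 0.0461, edgeR adjusted p 1.51e-07) and for ATF4 0.33 (SE 0.0390, edgeR adjusted p 2.53e-06). In each of these 5 genes all KO1 libraries were above all KO2 libraries. CARS1 differed by 0.48 (edgeR adjusted p 3.86e-07), whereas PHGDH, at 0.00 (edgeR adjusted p 0.976), and VLDLR, at −0.10 (edgeR adjusted p 0.19), were uncalled. SLC1A5 had 197, 209 and 208 CPM in WT, 238, 251 and 231 in KO1 and 180.4, 173 and 192 in KO2. All KO1 libraries were above WT and all KO2 libraries below, and KO1 differed from KO2 by a log2 fold change of 0.40 (SE 0.0397, edgeR adjusted p 2.77e-07).

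**Figure D4:**
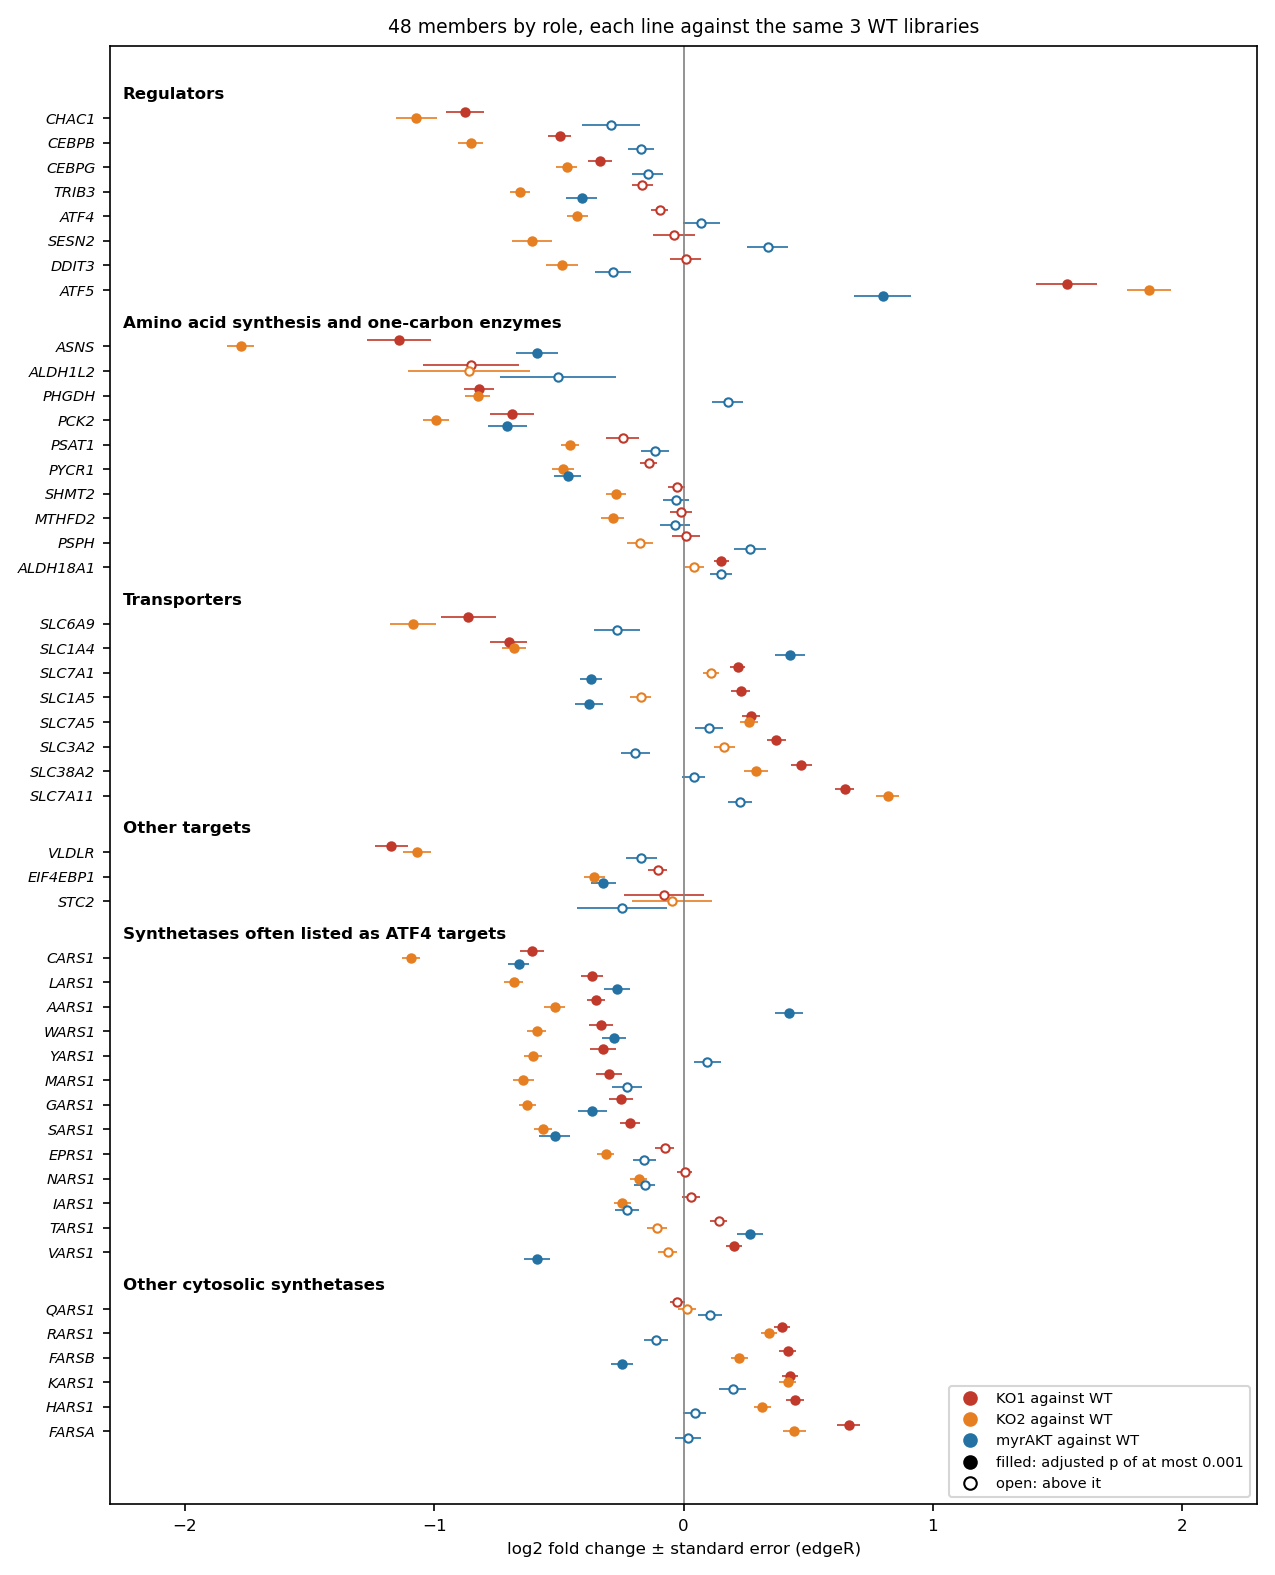
Log2 fold change against WT (x axis) of each of the 48 members by role, with points for KO1, KO2 and myrAKT. The KO2 estimate is below the KO1 estimate in 42 of 48 members, and ASNS has the lowest KO2 value at −1.78.

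In the plot of fold changes against WT, the 3 comparisons share their WT libraries, so members' values stand side by side and their likeness was not measured. Without KO1 replicate 1 the members with KO1 above KO2 were 16 in place of 26. The ASNS call ended without KO1 replicate 1 or 2 or KO2 replicate 1 or 2 and under 6 other settings (0.40 to 0.66), and that of SESN2 without KO1 replicate 1 (0.55). YARS1 (0.21 to 0.29) and WARS1 (0.20 to 0.27) lost it without KO1 replicate 1 or 2 or KO2 replicate 1, MTHFD2 (0.23 to 0.28) and NARS1 (0.17 to 0.18) without the same 3 libraries, and SHMT2 (0.21 to 0.24) without KO1 replicate 1 or 2. EIF4EBP1 (0.24 to 0.25) lost it without KO1 replicate 1 or KO2 replicate 1, FARSA (0.19 to 0.22) without KO1 replicate 1 or 3 or KO2 replicate 1 or 2, and FARSB (0.18 to 0.20) without any KO1 replicate or KO2 replicate 1. The single fit of 18 libraries ended the calls of ASNS, YARS1, MTHFD2, SHMT2, EIF4EBP1, FARSA and SLC3A2 (0.21), library totals those of ASNS, WARS1, YARS1 and FARSA, upper-quartile factors those of ASNS, WARS1 and YARS1, and DESeq2 those of ASNS, YARS1 and MARS1 (0.33).

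Membrane-tethered AKT1 was compared with WT, to see the program under active AKT without GPS2 guides. Members lower in myrAKT were 14 of 48 (29.2%, against 16.7% of all genes), and 4 were higher (8.33%, against 13.1%). The member median was −0.16 and that of all genes 0.02. DESeq2 called 14.2% higher and 18.5% lower of all genes, and 59.1% had an unadjusted p under 0.05 by edgeR. More members were higher by upper-quartile factors and by library totals, as counted in the closing section. Of all genes, upper-quartile factors gave 2358 higher and 2312 lower and library totals 2413 and 2316, against 2035 and 2610 by TMM. Replicate 2 of myrAKT was the highest of the 3 in ATF4, CHAC1, ASNS, PHGDH and AARS1.

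Of the 8 regulators 1 was higher and 1 lower. ATF4 had 265, 316 and 244 CPM in myrAKT, around the WT values, a log2 fold change of 0.07 (SE 0.0737, edgeR adjusted p 0.437). ATF5 had 12.4, 10.7 and 11.1 CPM, all above WT, a log2 fold change of 0.80 (SE 0.114, edgeR adjusted p 3.20e-05). TRIB3 had 46.7, 56.3 and 47.5 CPM, all below WT, a log2 fold change of −0.41 (SE 0.0617, edgeR adjusted p 5.64e-05). These last were the called regulators. DDIT3, at 11.5, 11.6 and 12.3 CPM, lay below WT without a call, a log2 fold change of −0.28 (SE 0.0708, edgeR adjusted p 0.00354). CHAC1, at 19.8, 28.4 and 19.5 CPM, overlapped WT, a log2 fold change of −0.29 (SE 0.116, edgeR adjusted p 0.0459). SESN2, at 15.7, 18.8 and 15.1 CPM, was above WT in each library and uncalled, a log2 fold change of 0.34 (SE 0.0831, edgeR adjusted p 0.00326). CEBPB was at −0.17 and CEBPG at −0.14, neither called.

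Of the 10 enzymes 3 were lower and 0 higher, with 7 at an unadjusted p under 0.05 in either direction by edgeR, and DESeq2 called 0 higher and 3 lower. PCK2 had 36.1, 45.2 and 34.3 CPM, a log2 fold change of −0.71 (SE 0.0771, edgeR adjusted p 2.18e-06), and ASNS had 79.6, 104 and 78.7 CPM, a log2 fold change of −0.59 (SE 0.0851, edgeR adjusted p 3.65e-05). PYCR1, whose exon bases overlap MYADML2 over 29.7%, had 84.8, 84.1 and 83.4 CPM in WT and 64.1, 63.5 and 55.4 in myrAKT, a log2 fold change of −0.46 (SE 0.0541, edgeR adjusted p 4.28e-06). These 3 were below WT in all libraries. PHGDH, in contrast, had 71.8, 80.1 and 65.4 CPM, all above WT and uncalled, a log2 fold change of 0.18 (SE 0.0609, edgeR adjusted p 0.0239). PSAT1, at 121, 133 and 112 CPM, a log2 fold change of −0.11 (SE 0.0557, edgeR adjusted p 0.0969), and MTHFD2, at 67.1, 74.2 and 61.9 CPM, a log2 fold change of −0.03 (SE 0.0592, edgeR adjusted p 0.646), overlapped WT. The remaining 4 were uncalled: SHMT2 at −0.03, ALDH18A1 at 0.15, PSPH at 0.27 and ALDH1L2 at −0.50.

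Of the transporters 1 was higher and 2 lower by edgeR and 2 higher and 2 lower by DESeq2. SLC1A4 had 49.7, 57.3 and 50.8 CPM, all above WT, a log2 fold change of 0.43 (SE 0.0591, edgeR adjusted p 2.43e-05). SLC1A5, at 159, 169.5 and 143 CPM, a log2 fold change of −0.38 (SE 0.0569, edgeR adjusted p 5.09e-05), and SLC7A1, at 277 to 293 CPM against 360.1 to 370.1 in WT, a log2 fold change of −0.37 (SE 0.0442, edgeR adjusted p 5.52e-06), were lower. SLC1A4 thus lay above WT in myrAKT and below it in the KO pools. SLC7A11, at 249, 258 and 267 CPM, a log2 fold change of 0.23 (SE 0.0495, edgeR adjusted p 0.00137), was above WT without a call, and SLC7A5, at 326, 359.5 and 306 CPM, a log2 fold change of 0.10 (SE 0.0571, edgeR adjusted p 0.147), overlapped it. Uncalled also were SLC3A2 at −0.19, SLC38A2 at 0.04 and SLC6A9 at −0.27. Among other targets EIF4EBP1 was lower, at 54.8 to 62.7 CPM against 71.9 to 75.2 in WT, a log2 fold change of −0.32 (SE 0.0517, edgeR adjusted p 0.0001), with VLDLR at −0.17 and STC2 at −0.25 uncalled.

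The 13 synthetases often listed as ATF4 targets held 6 lower and 2 higher. CARS1 had 98.1, 102 and 95.8 CPM, a log2 fold change of −0.66 (SE 0.0421, edgeR adjusted p 7.89e-09). VARS1, for valine, had 310.2, 296 and 306 CPM in WT and 212, 209 and 187 in myrAKT, a log2 fold change of −0.59 (SE 0.0524, edgeR adjusted p 2.65e-07), and SARS1, for serine, had 333, 326 and 332 CPM in WT and 224, 257 and 212 in myrAKT, a log2 fold change of −0.52 (SE 0.0607, edgeR adjusted p 4.60e-06). All myrAKT libraries of these 3 were below WT. WARS1, at 114, 118 and 107 CPM, a log2 fold change of −0.28 (SE 0.0472, edgeR adjusted p 0.000158), GARS1, for glycine, at −0.37 and LARS1 at −0.27 were lower too. AARS1, on the contrary, had 344, 378 and 320.3 CPM, all above WT, a log2 fold change of 0.42 (SE 0.0562, edgeR adjusted p 1.63e-05), and TARS1 was higher at 0.27. Uncalled were EPRS1 at −0.16, IARS1 at −0.23, MARS1 at −0.23, NARS1 at −0.16 and YARS1 at 0.10. Of the 6 other cytosolic synthetases FARSB alone was called, at a log2 fold change of −0.25 (SE 0.0442, edgeR adjusted p 0.000253), with FARSA at 0.02, KARS1 at 0.20, HARS1 at 0.05, RARS1 at −0.11 and QARS1 at 0.11.

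Calls in myrAKT that ended when 1 library was left out were those of FARSB without any of the 3 WT libraries (−0.26 to −0.23), WARS1 without WT replicate 2 or 3 (−0.27 to −0.26), LARS1 without WT replicate 1 or 3 or myrAKT replicate 1 or 3 (−0.27 to −0.23) and TARS1 without any WT library or myrAKT replicate 1 or 2 (0.24 to 0.29). A replicate block ended the calls of LARS1 and TARS1, upper-quartile factors and library totals that of LARS1, and the lack of a filter that of TARS1.

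KO and myrAKT libraries were also compared with each other, a test that uses no WT library. Members higher in KO were 9 (18.8%, against 19.8% of all genes) and members lower were 7 (14.6%, against 16.1%), with a median of −0.08 against 0.02. DESeq2 called 11 higher and 11 lower, against 3566 and 3292 of all 15587 genes. With KO1 and KO2 as separate groups more members were lower, as counted in the closing section. In that fit 4263 of all genes were higher and 3604 lower. By library totals 2429 of all genes were higher and 3096 lower. The 7 lower in KO were SLC1A4 at −1.12 (edgeR adjusted p 1.79e-07), PHGDH at −1.001 (edgeR adjusted p 6.07e-07), VLDLR at −0.95 (edgeR adjusted p 1.88e-07), AARS1 at −0.85 (edgeR adjusted p 9.61e-07), SLC6A9 at −0.70 (edgeR adjusted p 0.000197), CHAC1 at −0.69 (edgeR adjusted p 0.000516) and YARS1 at −0.55 (edgeR adjusted p 0.000278). The KO and myrAKT libraries of these 7 did not overlap. Higher in KO were ATF5 at 0.91, VARS1 at 0.66, FARSB at 0.57, FARSA at 0.54, SLC7A1 at 0.53, SLC7A11 at 0.51, RARS1 at 0.48, SLC3A2 at 0.46 and HARS1 at 0.34, all edgeR calls. ASNS, lower than WT in both, was not called between them, −0.84 (edgeR adjusted p 0.00446). Without myrAKT replicate 2 the members lower in KO were 4. CHAC1 lost its call without that library, KO1 replicate 3 or KO2 replicate 1 (−0.68 to −0.49), SLC6A9 without myrAKT replicate 2 or 3 (−0.71 to −0.65), YARS1 without myrAKT replicate 1 or 2 (−0.57 to −0.48), HARS1 without myrAKT replicate 2 or 3 (0.31 to 0.33) and SLC3A2 without myrAKT replicate 3 (0.41). A replicate block also ended the calls of CHAC1 and YARS1.

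What AKT inhibition does to the program in GPS2-targeted cells was read from 6 KO libraries with MK2206 against 6 without. Members higher with the inhibitor were 4 of 48 (8.33%, against 11.6% of all genes), and 1 was lower (2.08%, against 9.94%). The member median was −0.08 and that of all genes −0.02. The calls of this fit were 2 regulators, 1 transporter and 2 other targets. It does not take into account that treated and untreated libraries share a pool: with KO1 and KO2 as separate groups 8 members were higher and 14 lower (against 18.1% and 18.8% of all genes), and with all 18 libraries in 1 fit 8 and 15 (against 18.2% and 19.0%). DESeq2 called 15.8% higher and 13.8% lower of all genes in the pooled comparison, and 53.8% had an unadjusted p under 0.05 by edgeR. EIF4EBP1, TARS1, VARS1, FARSA and FARSB, uncalled when pooled, were lower in each line alone, with calls that depended on single libraries for all but FARSB, as given below.

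SESN2 (ENSG00000130766, chr1:28259518-28282491) had 26.4, 23.3 and 23.1 CPM in KO1+MK and 20.6, 24.3 and 28.98 in KO2+MK, all above the untreated KO libraries given earlier, a log2 fold change of 1.20 (SE 0.135, edgeR adjusted p 6.64e-06). ATF4 had 294, 307 and 299 CPM in KO1+MK and 288, 284 and 305 in KO2+MK, again all above untreated, a log2 fold change of 0.43 (SE 0.0703, edgeR adjusted p 0.000173). They were the regulators called by edgeR, while DESeq2 called 4 higher and 0 lower. DDIT3, at 17.9, 17.7 and 17.4 CPM in KO1+MK and 14.8, 14.7 and 16.9 in KO2+MK, a log2 fold change of 0.42 (SE 0.109, edgeR adjusted p 0.00603), and CHAC1, at 16.6, 15.4 and 16.4 CPM in KO1+MK and 13.8, 15.1 and 18.02 in KO2+MK, a log2 fold change of 0.18 (SE 0.0810, edgeR adjusted p 0.0784), overlapped untreated KO when the pools were joined. TRIB3, at 44.3, 52.5 and 52.4 CPM in KO1+MK and 36.97, 33.9 and 39.1 in KO2+MK, was uncalled, a log2 fold change of −0.23 (SE 0.133, edgeR adjusted p 0.167). ATF5 was at 0.36, CEBPB at 0.21 and CEBPG at 0.21, without calls.

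None of the 10 enzymes was called by edgeR, with 1 at an unadjusted p under 0.05, and DESeq2 called 0 higher and 1 lower. ASNS had 62.5, 72.1 and 67.3 CPM in KO1+MK and 41.9, 40.1 and 43.6 in KO2+MK, a log2 fold change of 0.16 (SE 0.202, edgeR adjusted p 0.551). PHGDH had 36.01, 42.1 and 39.4 CPM in KO1+MK and 37.9, 36.9 and 36.99 in KO2+MK, a log2 fold change of 0.08 (SE 0.0574, edgeR adjusted p 0.267). Both stayed below the WT libraries in all 6 treated libraries. PSAT1, at 95.97, 113 and 106 CPM in KO1+MK and 89.2, 91.6 and 94.2 in KO2+MK, a log2 fold change of −0.08 (SE 0.0776, edgeR adjusted p 0.418), and MTHFD2, at 63.03, 65.5 and 68.1 CPM in KO1+MK and 56.7, 58.3 and 61.1 in KO2+MK, a log2 fold change of −0.02 (SE 0.0716, edgeR adjusted p 0.873), overlapped untreated KO. The rest ran from −0.21 in PYCR1 to 0.05 in ALDH1L2, with PCK2 at −0.07, PSPH at −0.16, SHMT2 at −0.08 and ALDH18A1 at −0.17.

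Among transporters, of which DESeq2 called 1 higher and 1 lower, SLC1A4 was higher by edgeR, at 29.4, 31.6 and 29.8 CPM in KO1+MK and 30.04, 30.2 and 32.2 in KO2+MK, a log2 fold change of 0.33 (SE 0.0543, edgeR adjusted p 0.000167). VLDLR, at 31.1, 29.8 and 32.1 CPM in KO1+MK and 28.3, 31.1 and 32.1 in KO2+MK, was higher too, a log2 fold change of 0.46 (SE 0.0506, edgeR adjusted p 5.52e-06). For both, lower than WT in the KO pools, treated libraries lay above untreated ones without overlap. STC2 had 2.48, 2.62 and 2.08 CPM in KO1, 2.29, 2.68 and 2.37 in KO2, 1.21, 1.78 and 1.37 in KO1+MK and 1.92, 1.40 and 1.31 in KO2+MK. It was the member lower with the inhibitor, with no treated library reaching an untreated one, a log2 fold change of −0.69 (SE 0.126, edgeR adjusted p 0.000443). SLC7A11, at 319, 317 and 307 CPM in KO1+MK and 347, 378 and 356 in KO2+MK, a log2 fold change of −0.12 (SE 0.0582, edgeR adjusted p 0.101), and SLC7A5, at 322, 343 and 343 CPM in KO1+MK and 384, 345 and 349 in KO2+MK, a log2 fold change of −0.09 (SE 0.0369, edgeR adjusted p 0.0546), were uncalled. So were SLC38A2 at 0.14, SLC3A2 at 0.11, SLC1A5 at −0.10, SLC7A1 at −0.14, SLC6A9 at −0.32 and EIF4EBP1 at −0.29.

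No synthetase was called by edgeR in the pooled comparison, while 4 of the 13 and 5 of the 6 had an unadjusted p under 0.05. DESeq2 called 0 higher and 0 lower of the 13 and 0 higher and 3 lower of the 6. AARS1 had 209, 219.9 and 218 CPM in KO1+MK and 198, 193 and 201 in KO2+MK, a log2 fold change of 0.10 (SE 0.0525, edgeR adjusted p 0.117), and WARS1 had 98.2, 106 and 105 CPM in KO1+MK and 91.1, 81.1 and 87.4 in KO2+MK, a log2 fold change of −0.08 (SE 0.0798, edgeR adjusted p 0.458). Both overlapped untreated KO. The 13 had a median of −0.08, from −0.27 in VARS1 to 0.10 in AARS1, and the 6 a median of −0.15, from −0.33 in FARSB to −0.02 in QARS1. Summed TPM of the 13 was 1470.2 ± 47.5 in KO1+MK and 1214 ± 30.2 in KO2+MK.

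**Figure D5:**
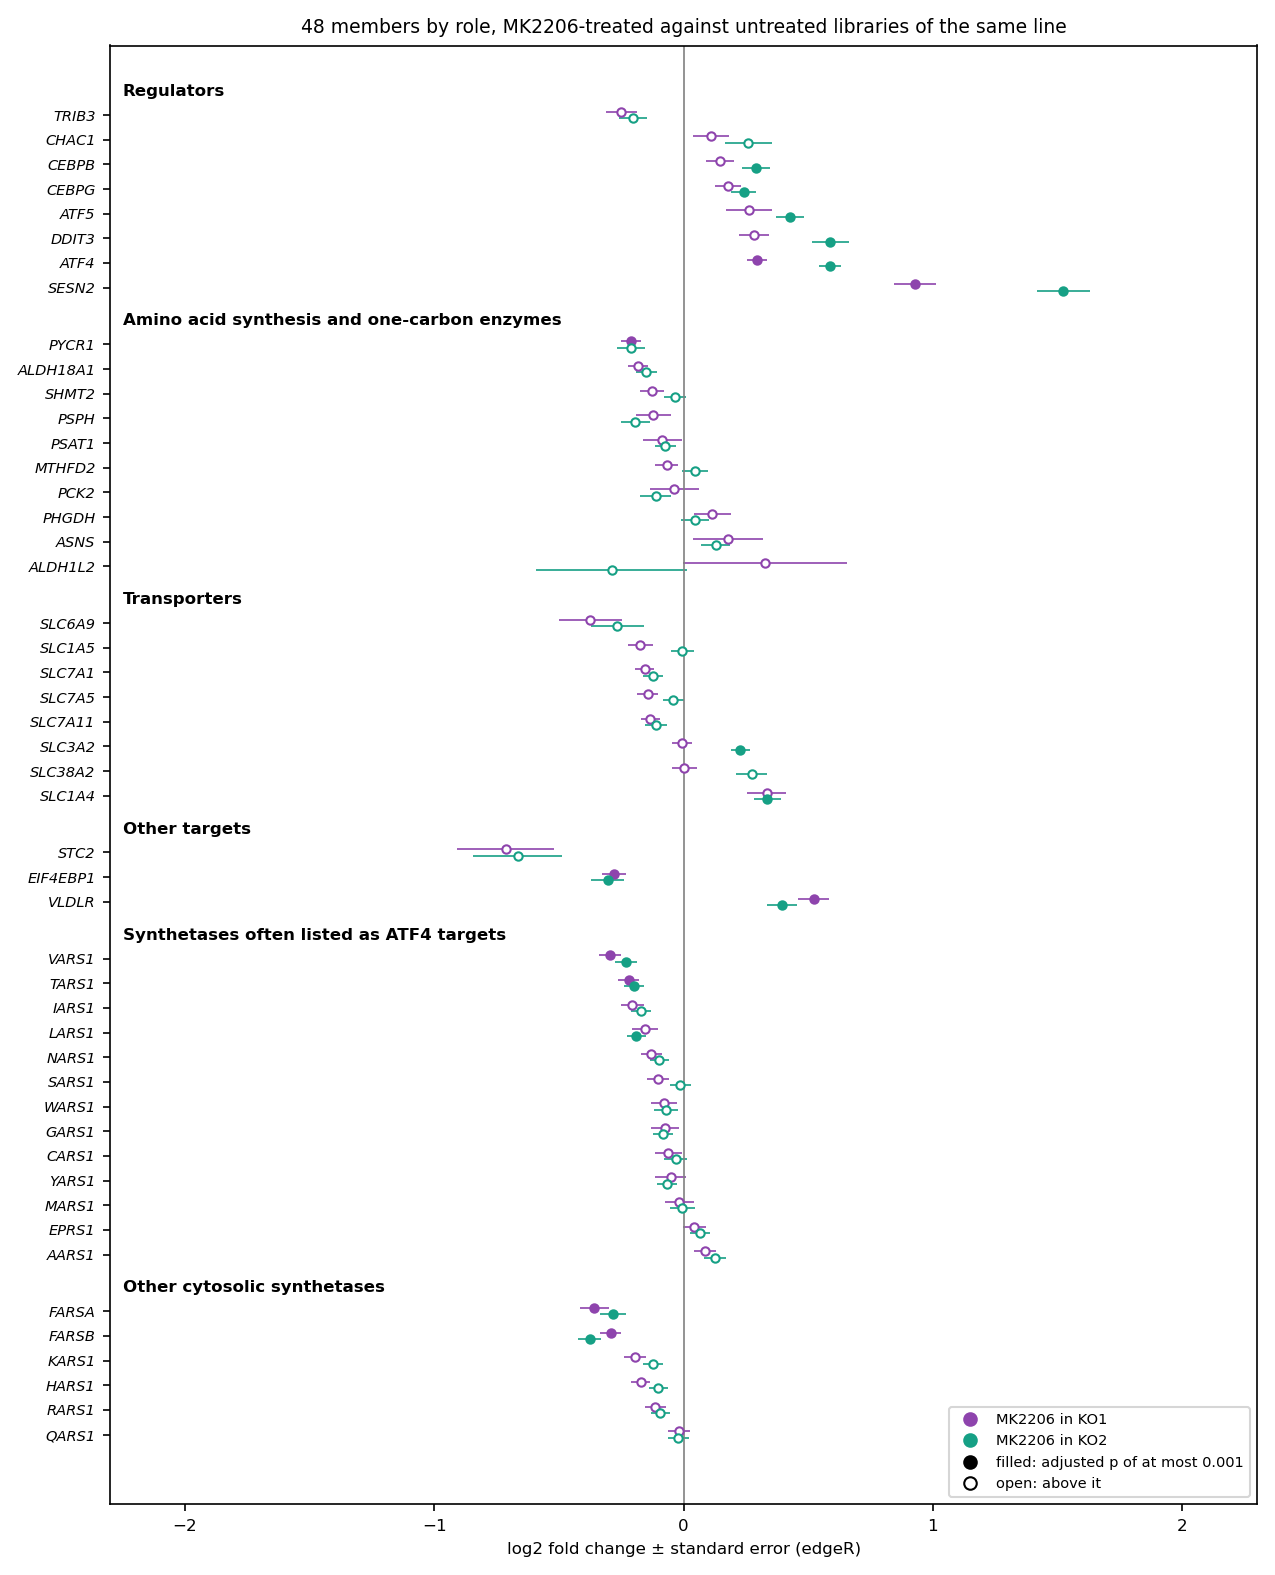
Log2 fold change of MK2206 against no treatment (x axis) of each of the 48 members by role, with points for KO1 and KO2. SESN2 is farthest to the right, at 1.52 in KO2, and STC2 farthest to the left, at −0.71 in KO1.

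Within single lines more members were called. In KO1, 3 were higher (6.25%, against 9.72% of all genes) and 6 lower (12.5%, against 9.26%), and in KO2, 9 were higher (18.8%, against 12.3%) and 6 lower (12.5%, against 10.1%). The higher ones in KO1 were SESN2 at 0.93, VLDLR at 0.52 and ATF4 at 0.29. In KO2 they were SESN2 at 1.52, ATF4 at 0.59, DDIT3 at 0.59, ATF5 at 0.43, VLDLR at 0.40, SLC1A4 at 0.34, CEBPB at 0.29, CEBPG at 0.24 and SLC3A2 at 0.23. EIF4EBP1, TARS1, VARS1, FARSA and FARSB were lower in both lines, at −0.28, −0.22, −0.30, −0.36 and −0.29 in KO1 and −0.30, −0.20, −0.23, −0.28 and −0.38 in KO2. PYCR1 in KO1 (−0.21) and LARS1 in KO2 (−0.19) completed the 6 of each line. Several of these calls ended when 1 library was left out. In KO1 that of EIF4EBP1 ended without KO1 replicate 1 or 2 (−0.27 to −0.23), those of VARS1 (−0.29) and FARSA (−0.34 to −0.33) without KO1 replicate 1 or 3, and those of TARS1 (−0.25 to −0.17) and PYCR1 (−0.24 to −0.16) without any KO1 replicate or KO1+MK replicate 2 or 3, and PYCR1 also under a replicate block. In KO2, leaving out KO2 replicate 1 ended the calls of CEBPB (0.24 to 0.26), CEBPG (0.22 to 0.27), SLC3A2 (0.24), EIF4EBP1 (−0.34 to −0.25), FARSA (−0.29 to −0.24), LARS1 (−0.19 to −0.17), TARS1 (−0.20 to −0.17) and VARS1 (−0.22 to −0.20). KO2 replicate 2 did so for CEBPB, CEBPG and EIF4EBP1, KO2 replicate 3 for all of the 8 but CEBPB and SLC3A2, KO2+MK replicate 2 for all but CEBPB, and KO2+MK replicate 3 for all but SLC3A2. Library totals also ended the KO1 calls of EIF4EBP1, TARS1 and PYCR1. DESeq2 size factors, TMM on the compared libraries and the single fit of 18 libraries ended that of PYCR1. In KO2 upper-quartile factors, the lack of a filter and the single fit ended the call of CEBPG, and the single fit that of LARS1. DESeq2 size factors, library totals and TMM on the compared libraries ended the KO2 call of EIF4EBP1. The ranges in parentheses cover each alternative that ended the call. The plot of MK2206 fold changes shows the values of the KO1 and KO2 lines side by side.

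The difference of the MK2206 effect between lines was tested itself, as an interaction. The edgeR test called 0 of 48 members in either direction (against 0.0128% of all genes for a larger value in KO2 and 0% for a smaller one). At an unadjusted p under 0.05 were 6 members (12.5%, against 7.83% of genes tested), and DESeq2 called ATF4, at 0.29 (adjusted p 0.000383), against 0.115% higher and 0.0257% lower of all genes. The member median was 0.03 and that of all genes 0.01. A call in KO2 that was missing in KO1 was thus not a called difference between lines.

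With 1 library left out, members lower in the pooled comparison were 0 without KO1 replicate 1 or 2, KO2 replicate 3, KO1+MK replicate 1 or KO2+MK replicate 2 or 3, and 2 without KO1+MK replicate 2 or KO2+MK replicate 1. The STC2 call ended without KO1 replicate 1 or 2, KO2 replicate 2 or 3, KO1+MK replicate 1 or 3 or KO2+MK replicate 2 or 3 (−0.69 to −0.64). In KO1 alone the 6 lower became 1, 3 and 2 without KO1 replicates 1, 2 and 3 and 12 without KO1+MK replicate 1, which also brought the higher ones to 5. In KO2 alone they became 1 without KO2 replicate 1 or 3 or KO2+MK replicate 2 or 3.

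The promoter letters shown earlier were set beside these calls for the 14 members that hold them and the 25 with a window that does not. KO against WT had 0 higher and 6 lower with the letters (median −0.41) and 8 higher and 6 lower without them (median −0.19), against 16.9% and 15.5% of all genes. In KO1 there were 3 higher and 8 lower with the letters (median −0.28) and 9 higher and 7 lower without them (median −0.04), against 21.9% and 20.0% of all genes. In KO2 there were 0 higher and 10 lower with the letters (median −0.49) and 8 higher and 14 lower without them (median −0.31), against 21.7% and 22.1% of all genes. The myrAKT libraries had 3 higher and 5 lower with the letters (median −0.23) and 1 higher and 5 lower without them (median −0.11), against 13.1% and 16.7% of all genes. With MK2206 in the pooled KO libraries there were 1 higher and 0 lower with the letters (median −0.03) and 3 higher and 1 lower without them (median −0.07), against 11.6% and 9.94% of all genes. Members with the letters were thus called in both directions in KO1 and myrAKT, and members without them were called lower in each of these comparisons. No difference between members with and without the letters was tested.

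Neighbouring parts of the pathway were read from lists chosen by function. Of all genes, for the counts below, DESeq2 called 20.7% higher and 20.8% lower in KO, 14.2% higher and 18.5% lower in myrAKT and 15.8% higher and 13.8% lower with MK2206, and 64.4%, 59.1% and 53.8% had an unadjusted p under 0.05. The 14 genes for eIF2 kinases, eIF2 subunits (EIF2S1, EIF2S2 and EIF2S3), eIF2B and eIF2 phosphatases had 3 higher (21.4%, against 16.9% of all genes) and 2 lower (14.3%, against 15.5% of all genes) in KO against WT. DESeq2 called 6 higher and 3 lower, and 12, 5 and 10 of the 14 had an unadjusted p under 0.05 in KO, myrAKT and MK2206. Taken alone KO1 had 8 higher and 2 lower than WT and KO2 4 higher and 4 lower, against 21.9% and 20.0% of all genes in KO1 and 21.7% and 22.1% in KO2, and the pooled fit counts the difference between pools as spread. PPP1R15A, which directs dephosphorylation of eIF2, was higher at 0.79 (edgeR adjusted p 7.67e-07) and the exchange factor subunit EIF2B1 at 0.53 (edgeR adjusted p 1.68e-05), where 15.6% of exon bases overlap GTF2H3 on the opposite strand. In myrAKT 1 was lower (7.14%, against 16.7% of all genes), EIF2B3 at −0.36 (edgeR adjusted p 6.65e-05), and DESeq2 called 0 higher and 2 lower. With MK2206 4 were higher (28.6%, against 11.6% of all genes) and 2 lower (14.3%, against 9.94% of all genes) by edgeR, and DESeq2 called 4 higher and 3 lower. Among the higher ones were EIF2AK3, the kinase PERK that senses misfolded protein in the endoplasmic reticulum, at 0.97 (edgeR adjusted p 3.08e-08), and PPP1R15B, the constitutive phosphatase subunit, at 0.47 (edgeR adjusted p 2.04e-07). EIF2AK3 means were 17.5 and 16.3 CPM in untreated KO1 and KO2 and 33.7 and 32.4 with the inhibitor.

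The 14 genes of the chaperone response of the endoplasmic reticulum had 5 lower (35.7%, against 15.5% of all genes) and 0 higher in KO against WT (median −0.45). In myrAKT 5 were lower (35.7%, against 16.7% of all genes) and 0 higher (median −0.22), and with MK2206 7 were higher (against 11.6% of all genes) and 0 lower (median 0.22), by edgeR. At an unadjusted p under 0.05 were 13, 11 and 10 of the 14, and DESeq2 called 0 higher and 9 lower, 0 higher and 6 lower and 7 higher and 0 lower. By line, edgeR called 0 higher and 8 lower (against 21.9% and 20.0% of all genes) in KO1 against WT and 0 higher and 12 lower (against 21.7% and 22.1% of all genes) in KO2. In KO1 against KO2 there were 6 higher and 0 lower (against 7.62% and 5.08% of all genes). With MK2206 there were 6 higher and 0 lower (against 9.72% and 9.26% of all genes) in KO1 and 8 higher and 0 lower (against 12.3% and 10.1% of all genes) in KO2. In KO the chaperone HSP90B1 was at −0.70 (edgeR adjusted p 2.23e-06) and EDEM1, which hands misfolded glycoproteins to degradation, at −0.57 (edgeR adjusted p 5.95e-07). In myrAKT the chaperones HYOU1 at −1.15 (edgeR adjusted p 1.30e-10) and HSPA5 at −0.78 (edgeR adjusted p 1.93e-08) were lower. With the inhibitor the cochaperone DNAJB9 was at 1.26 (edgeR adjusted p 3.62e-08) and HERPUD1, part of the degradation machinery, at 1.17 (edgeR adjusted p 2.26e-07).

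Of 12 further genes often listed under ATF4, 10 passed the filter, with 4 lower (against 15.5% of all genes) and 0 higher in KO by edgeR. In myrAKT 4 were higher (against 13.1% of all genes) and 3 lower (against 16.7% of all genes), and with MK2206 4 were higher (against 11.6% of all genes) and 0 lower. Their numbers at an unadjusted p under 0.05 were 8, 10 and 7, and DESeq2 called 0 higher and 7 lower, 4 higher and 4 lower and 4 higher and 0 lower. Against WT, KO1 alone had 0 higher and 6 lower (against 21.9% and 20.0% of all genes) and KO2 1 higher and 8 lower (against 21.7% and 22.1% of all genes), with 5 higher and 3 lower (against 7.62% and 5.08% of all genes) in KO1 against KO2. MK2206 gave 5 higher and 1 lower (against 9.72% and 9.26% of all genes) in KO1 and 5 higher and 2 lower (against 12.3% and 10.1% of all genes) in KO2. DDIT4, an mTORC1 inhibitor, was lower in KO at −1.55 (edgeR adjusted p 9.58e-07), as was the stress hormone GDF15 at −1.48 (edgeR adjusted p 0.000487). In myrAKT SESN3, a relative of SESN2, was higher at 2.92 (edgeR adjusted p 2.21e-13) and GDF15 lower at −1.36 (edgeR adjusted p 1.13e-08). SESN3 was higher with MK2206 as well, at 1.75 (edgeR adjusted p 0.000241), like KLHL24 at 1.71 (edgeR adjusted p 8.72e-08). Leaving out any WT library or KO2 replicate 3 ended the KO call of GDF15 (−1.51 to −1.40), and a replicate block ended that call and the MK2206 call of SESN3 (1.74).

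The 17 mitochondrial synthetases, which charge tRNA for the organelle, had 5 higher (29.4%, against 16.9% of all genes) and 0 lower in KO (median 0.14), with MARS2 at 0.73 (edgeR adjusted p 8.76e-07) and CARS2 at 0.72 (edgeR adjusted p 2.56e-07). CARS2, for cysteine in mitochondria, was thus higher where its cytosolic counterpart CARS1 was lower. In myrAKT 4 were lower (23.5%, against 16.7% of all genes) and 0 higher, with NARS2 at −1.01 (edgeR adjusted p 6.08e-09). With MK2206 5 were lower (29.4%, against 9.94% of all genes) and 0 higher, with EARS2 at −0.44 (edgeR adjusted p 0.00045) and CARS2 at −0.39 (edgeR adjusted p 2.82e-06), and the EARS2 call ended without any KO1 replicate, KO1+MK replicate 1 or any KO2+MK replicate or under a replicate block (−0.44 to −0.39). In KO, myrAKT and MK2206, 12, 9 and 9 of the 17 had an unadjusted p under 0.05 by edgeR, and DESeq2 called 6 higher and 0 lower, 0 higher and 5 lower and 0 higher and 7 lower. The separate lines gave 6 higher and 0 lower (against 21.9% and 20.0% of all genes) in KO1 and 5 higher and 1 lower (against 21.7% and 22.1% of all genes) in KO2 against WT. With MK2206 they gave 0 higher and 4 lower (against 9.72% and 9.26% of all genes) in KO1 and 0 higher and 3 lower (against 12.3% and 10.1% of all genes) in KO2. Of the scaffold proteins of the multisynthetase complex, AIMP2 at 0.51 (edgeR adjusted p 4.84e-05) and EEF1E1 at 0.35 (edgeR adjusted p 6.08e-05) were higher in KO. With MK2206 both were lower, AIMP2 at −0.43 (edgeR adjusted p 0.000213) and EEF1E1 at −0.40 (edgeR adjusted p 0.000209). Of the AIMP2 exon bases 29.1% overlap EIF2AK1 on the opposite strand, which had 80097 counts over all libraries against 12216 for AIMP2, and how reads there were counted is not stated.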

How the data were processed

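RNA counts of 18 libraries were taken as deposited: whole-number counts per Ensembl gene, made by the authors with FastQC, Trim Galore, HISAT2 on hg38, featureCounts and MultiQC, whose versions, annotation release and rules for strand and overlapping genes are not stated. TMM factors over all 18 libraries and quasi-likelihood tests came from edgeR 4.0.16 in R 4.3.3, on the 15587 genes that reached 1 CPM in 3 or more libraries, each fit holding only the groups compared. Benjamini-Hochberg adjusted p of at most 0.001 over all genes tested was the call, with no minimum fold. The SE is the log2 fold change divided by the root of the F statistic. TPM used GENCODE 44 exon lengths, and promoter windows came from RefSeq. DESeq2 1.42.0, other scalings, filters, thresholds and models, and leaving out each library were the alternatives. Python 3.11.15, pandas 2.3.3, numpy 2.4.6, scipy 1.17.1 and matplotlib 3.10.9 made tables and plots. The members and lists were chosen with earlier results of these data known. Named in full are 13 members by function, plus the 3 called members of each role, and up to 2 called genes of each further list, with the largest absolute log2 fold change in KO and myrAKT against WT and in KO with MK2206 against without; other genes were named after their values were seen. Counts limit precision most in the lowest members.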

Additional observations from a re-analysis of the deposited data

Results flagged for a closer look

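In the direct comparison of the GPS2-targeted pools, 26 of 48 members were called with KO1 above KO2, a difference between groups that carry guides against the same gene. SLC1A5 had all KO1 libraries above WT and all KO2 libraries below it, and KO1 was above KO2 by a log2 fold change of 0.40. Differences of guide set, pool composition and culture between KO1 and KO2 cannot be told apart in this design.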

How the results depend on the processing

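Gene values named in the text covered 256 pairs of gene and comparison and 4309 alternatives, of which 3896 kept direction and side of the threshold, 232 ended a call, 127 made one, 54 changed the sign of a value uncalled in both, and 0 turned a called value to the other direction. Of 362 alternatives for counts of members, 286 stayed within 1.5 times and 76 did not. Adding a fold of at least 1.5 gave 2 higher and 9 lower in KO against WT, 3 and 8 in KO1, 2 and 16 in KO2, 1 and 4 in myrAKT, 1 higher with MK2206, 1 and 0 with it in KO1, 3 and 0 in KO2, 2 higher in KO against myrAKT and 1 in KO1 against KO2, by the construction of a stricter rule. Adjusted p of at most 0.05 gave 24 lower in KO against WT, 10 higher and 24 lower in myrAKT, 7 and 12 with MK2206, 8 and 21 with it in KO1, 17 lower in KO2, 17 lower in KO against myrAKT, 2 lower in KO1 against KO2 and 1 in the interaction. With KO1 and KO2 as separate groups, or with all 18 libraries in 1 fit, members lower in KO against WT were 26 and 24, those higher with MK2206 8 and 8, those lower with it 14 and 15, and those lower in KO against myrAKT 15 and 17, and the single fit gave 5 higher with MK2206 in KO1. Of all genes, 3604 and 3638 were lower in KO against myrAKT in these fits. Neither fit counts the difference between pools as spread. DESeq2 gave 6 lower with MK2206, 10 in KO1, 11 lower in KO against myrAKT, 2 in KO1 against KO2 and 1 in the interaction. Upper-quartile factors gave 7 higher in myrAKT, 5 lower with MK2206 and 1 lower in KO1 against KO2, library totals 7 higher in myrAKT, 3 lower with MK2206 in KO1 and 1 lower in KO1 against KO2, and DESeq2 size factors 1 in the last. Without the filter, 3 were lower with MK2206, 6 higher in KO1, 2 lower in KO1 against KO2 and 1 in the interaction. Where the construction does not show the cause, the cause was not tested. A replicate block gave 9 lower in KO against WT and 2 lower in KO1 against KO2; replicates were treated as unpaired, since same-numbered libraries correlated at −0.225 to 0.205 and 8 of 18 libraries were nearest their own number. Leaving out 1 library gave 9 to 18 lower in KO against WT, 0 to 2 lower with MK2206, 3 to 5 higher and 1 to 12 lower with it in KO1, 1 to 8 lower in KO2, 4 to 10 lower in KO against myrAKT, and 16 to 27 higher and 0 to 1 lower in KO1 against KO2. Scalings moved the all-gene median by at most 0.0772. Among all genes, calls higher and lower by library totals were 1928 and 1094 with MK2206 in KO1 (1515 and 1444 by TMM), 2429 and 3096 in KO against myrAKT (3093 and 2504 by TMM, 2482 and 3058 by upper-quartile factors) and 996 and 1001 in KO1 against KO2 (1188 and 792 by TMM). Depth limits the weakest members most, with 16 counts at the lowest.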
